A study of Mus musculus with 10 samples.

Results

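The genes described here are the isolated Zfp genes of the mouse: protein-coding genes whose symbol is Zfp followed by digits alone and whose span on mm10 lies more than 100 kb from that of any other such gene. Of 367 protein-coding genes with such a symbol, 155 met the rule and the other 212, called clustered below, did not. They were drawn from the 21887 protein-coding genes of the RefSeq gene table (GRCm38.p6, the assembly of mm10). The members lie on every chromosome except Y, with 17 on chromosome 7 and 16 on chromosome 8 as the most. The 10 samples came from male embryonic stem cells grown in serum and LIF without feeder cells. In 1 pull-down and 1 input, YTHDC1 carried a Halo tag knocked into its own gene. The other 8 libraries measured m6A, with 2 precipitates and 2 inputs for each Mettl3 genotype, wild type and knockout. For the knockout libraries the genotype was taken from the titles, since their cell type entry reads WT. The titles name 1 knockout input and precipitate KO1 and the others KO. Nothing in the labels says how many clones the knockout stands for or whether samples of 1 genotype were separate cultures.

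What was deposited is 1 list of peak positions for wild-type m6A (12368 peaks), 1 for knockout m6A (6764) and 1 for the YTHDC1 RNA immunoprecipitation, RIP (30992). No list carries a height, a read count or a value per replicate, so the depth is unknown and no difference below could be set against a spread over samples. Of the knockout precipitates, 1 carries the wild-type file in its description, so which libraries made each m6A list is not settled by the labels. Every count is therefore a description of these lists. Intervals of shares are exact Clopper-Pearson 95% intervals that cover the counting of genes or peaks only. Those of median positions are 95% intervals read off the sorted positions at binomial ranks. Intervals over peaks treat the peaks of 1 gene as independent, so they may be too narrow where genes hold several peaks. A peak belonged to a gene when its midpoint lay in the gene's span. Whether a gene was transcribed cannot be read from the lists, and the part of expression in any share below was not tested. Pou5f1 and Nanog mark these cells, but positions of peaks give no levels with which to check the cell type.

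Zfp symbols are given in mouse mainly to proteins with C2H2 zinc fingers, small zinc-bound folds that read DNA and at times RNA or protein. Many such proteins carry a KRAB domain that calls in the corepressor TRIM28 to silence retrotransposons, and genes of that kind are typically packed in clusters and encode their finger array in a long terminal exon. Isolated genes include older transcription factors, and the symbol also covers proteins of other kinds, such as the RNA-destabilising factor encoded by Zfp36. The rule measured distance only to genes with such a symbol, so members may still lie in clusters with genes of other names. The age and the domains of the members were not tested. METTL3 deposits N6-methyladenosine (m6A) on nascent messenger RNA, often in long exons and around stop codons, and YTHDC1 reads the mark in the nucleus. The gene table used here holds no exons.

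The distance rule cut through a continuous range. Just inside it were Zfp715 and Zfp936, 104 kb from each other, Zfp653 at 117 kb from its neighbour, Zfp781 and Zfp873 at 118 kb and Zfp980 at 132 kb. Just outside were Zfp605 and Zfp932 (97.8 kb), Zfp972 (97.6 kb), Zfp263 (96.4 kb) and Zfp72 with Zfp825 (87.5 kb). The 6 inside held 4 wild-type m6A, 1 knockout m6A and 6 RIP peaks together, and the 6 outside held 6, 1 and 4.

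Nearly 2 in 3 isolated Zfp genes carried m6A in the wild-type list. A wild-type peak lay in 100 of 155 members (64.5%, 95% interval 56.4 to 72%), beside 30.3% of all protein-coding genes and 65.1% (58.3 to 71.5%) of the clustered Zfp genes. A YTHDC1 RIP peak lay in 97 members (62.6%, 54.5 to 70.2%), beside 42.2% of all protein-coding genes and 55.7% (48.7 to 62.5%) of the clustered ones. A knockout m6A peak lay in 31 members (20%, 14 to 27.2%), beside 18.2% of all protein-coding genes, a share near the background, and 12.3% (8.17 to 17.5%) of the clustered ones. The wild-type and RIP intervals of the members thus lay above the share of all genes, and the knockout interval contained it. Isolated and clustered genes had overlapping intervals in every list.

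**Figure D1:**
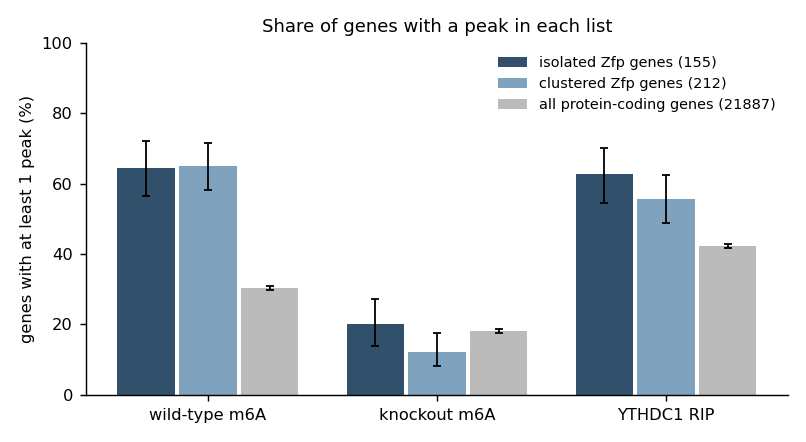
Percentage of genes (vertical axis) with at least 1 peak in each of the 3 lists (horizontal axis), for 155 isolated Zfp genes, 212 clustered Zfp genes and 21887 protein-coding genes; bars are shares and whiskers exact 95% binomial intervals. Both Zfp groups stand near 65% in the wild-type m6A list against 30.3% of all genes, and all 3 groups lie between 12.3% and 20% in the knockout list.

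By length of the gene span, the share of members with a wild-type peak was 64% (16 of 25) for spans under 10 kb, 65.9% (54 of 82) for 10 to 30 kb, 70% (21 of 30) for 30 to 100 kb and 50% (9 of 18) for longer spans. Over all protein-coding genes the same classes gave 18%, 34.6%, 41.6% and 35.5%. The mean number of wild-type peaks per member with a peak was 1.88, 1.94, 3.1 and 5.11 from the shortest to the longest class, beside 1.5, 1.7, 2 and 2.14. In the RIP list the members' shares were 40%, 68.3%, 60% and 72.2%, beside 21%, 46%, 58.2% and 68.1%, so that members and all genes were close from 30 kb upward. Across the 155 members the number of peaks and the span length had a rank correlation of 0.119 for wild-type m6A and 0.236 for RIP. The members share the 3 lists and their thresholds, so these coefficients are descriptions.

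**Figure D2:**
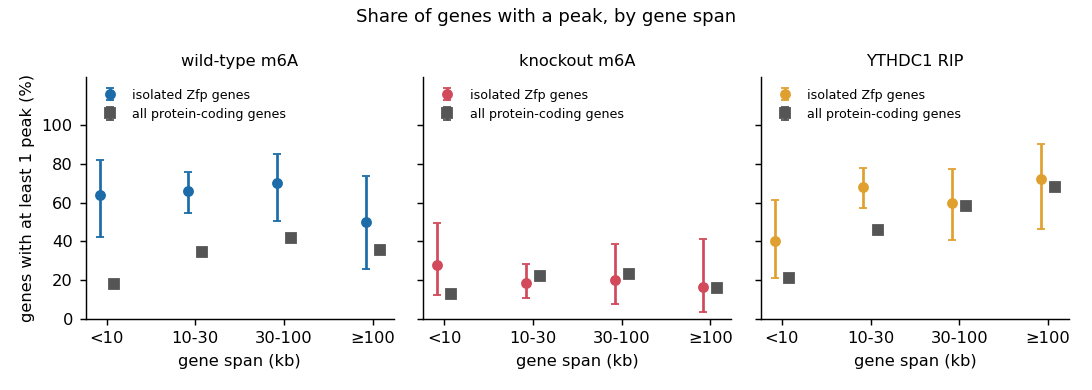
Percentage of genes with at least 1 peak (vertical axis) by length of the gene span in kb (horizontal axis), with 1 panel for each list; circles are isolated Zfp genes, squares all protein-coding genes and whiskers exact 95% intervals. In the wild-type panel the circle for spans under 10 kb stands at 64% and the square at 18%, while for the longest spans the interval of the circle (26 to 74%) contains the square.

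By the combination of lists, the members fell into 8 classes. The largest held 49 genes with wild-type m6A and RIP peaks and no knockout peak: Zfp1, Zfp62, Zfp68, Zfp69, Zfp90, Zfp106, Zfp131, Zfp142, Zfp143, Zfp148, Zfp157, Zfp189, Zfp217, Zfp267, Zfp276, Zfp292, Zfp317, Zfp319, Zfp346, Zfp362, Zfp365, Zfp367, Zfp395, Zfp407, Zfp410, Zfp462, Zfp473, Zfp507, Zfp516, Zfp532, Zfp574, Zfp622, Zfp639, Zfp644, Zfp654, Zfp664, Zfp704, Zfp715, Zfp775, Zfp788, Zfp821, Zfp827, Zfp867, Zfp930, Zfp941, Zfp945, Zfp980, Zfp990 and Zfp996. A wild-type m6A peak without a RIP peak was found in 26 members (16.8%), beside 7.73% of all protein-coding genes, and 24 of them had no knockout peak either: Zfp3, Zfp11, Zfp39, Zfp41, Zfp46, Zfp184, Zfp236, Zfp341, Zfp369, Zfp408, Zfp422, Zfp449, Zfp511, Zfp526, Zfp592, Zfp661, Zfp691, Zfp740, Zfp770, Zfp791, Zfp808, Zfp839, Zfp873 and Zfp951. All 3 lists had a peak in 25: Zfp37, Zfp42, Zfp57, Zfp64, Zfp91, Zfp207, Zfp219, Zfp281, Zfp296, Zfp318, Zfp330, Zfp384, Zfp451, Zfp512, Zfp593, Zfp598, Zfp609, Zfp638, Zfp652, Zfp653, Zfp655, Zfp687, Zfp710, Zfp800 and Zfp830. The 2 with both kinds of m6A peak and no RIP peak were Zfp326 and Zfp513. Together 27 members (17.4%, 11.8 to 24.3%) had both wild-type and knockout m6A, beside 11.5% of all protein-coding genes, and 74 (47.7%) had wild-type m6A and RIP, beside 22.6%.

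A RIP peak with no m6A peak was found in 21 members (13.5%, 8.59 to 20%), near the 14.8% of all protein-coding genes: Zfp169, Zfp277, Zfp335, Zfp386, Zfp423, Zfp433, Zfp469, Zfp612, Zfp618, Zfp629, Zfp640, Zfp697, Zfp750, Zfp781, Zfp936, Zfp938, Zfp949, Zfp958, Zfp959, Zfp966 and Zfp967. A knockout m6A peak without a wild-type one was found in 4 members (2.58%, 0.708 to 6.48%), beside 6.66% of all protein-coding genes: Zfp185 and Zfp414 with no RIP peak, and Zfp651 and Zfp706 with 1 RIP peak each. In the opposite direction, 73 members (47.1%, 39 to 55.3%) had wild-type and no knockout m6A, beside 18.8% of all protein-coding genes. No list had a peak in 30 members (19.4%, 13.5 to 26.5%), beside 48.3% of all protein-coding genes: Zfp36, Zfp40, Zfp113, Zfp160, Zfp202, Zfp352, Zfp358, Zfp366, Zfp438, Zfp467, Zfp474, Zfp488, Zfp503, Zfp521, Zfp523, Zfp536, Zfp541, Zfp558, Zfp608, Zfp616, Zfp641, Zfp648, Zfp703, Zfp711, Zfp735, Zfp831, Zfp950, Zfp957, Zfp970 and Zfp973.

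The 100 members with wild-type m6A held 246 wild-type peaks. Of these members, 43 had a single peak, beside 3638 of the 6632 protein-coding genes with wild-type m6A, and 36 had 3 or more. The 36 are 23.2% (16.8 to 30.7%) of the members, beside 6.02% of all protein-coding genes. The peaks had a median width of 400 bp, the same as over all protein-coding genes, and the middle range between quartiles ran from 250 to 688 bp. In the median member with a peak they covered 3.71% of the span, against 2.69% over all protein-coding genes with one. At 1 kb or wider there were 34 peaks (13.8%, 9.77 to 18.8%), beside 9.85% of those in all protein-coding genes. They lay in 29 members (18.7%, 12.9 to 25.8%), beside 5.1% of all protein-coding genes. No knockout peak of a member was wider than 600 bp (0 of 45, interval up to 7.87%), beside 1.38% over all protein-coding genes.

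Zfp318, a large nuclear protein known for its control of IgD expression in B cells, held the most wild-type peaks, 9 with 4200 bp in all. Its knockout list entry was a single 500 bp peak inside the third of these (chr17:46399401-46399900 within chr17:46399101-46399950). Zfp292, a large transcription factor, had 8 wild-type peaks that all lay between 89.6% and 97.6% of the way along its 79874 bp span, and no knockout peak. Zfp462, which partners heterochromatin methyltransferases in embryonic stem cells, also had 8 and no knockout peak, and at 5150 bp the largest summed width of any member. In Zfp462, 6 of the peaks stood within about 5 kb of sequence, from 55008701 to 55013800 on chromosome 4. Zfp609, Zfp644 and Zfp704 had 7 each, and of these only Zfp609 had knockout peaks (2).

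The widest single peak was that of Zfp715, 2450 bp (chr7:43297701-43300150), its only wild-type peak. Next came Zfp408, whose human counterpart is mutated in retinal disease, with 1 peak of 1850 bp, and Zfp41 with a widest peak of 1800 bp among 3. Zfp507 and Zfp687 reached 1700 bp. Zfp142, Zfp217, Zfp513 and Zfp516 each had a peak of 1550 bp, and Zfp148 and Zfp704 of 1500 bp. Zfp64 completed the 12 widest with 1400 bp. Of these 12, Zfp64, Zfp513 and Zfp687 had knockout peaks (2 each), and the wild-type peaks of Zfp64 and Zfp513 did not overlap them.

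**Figure D3:**
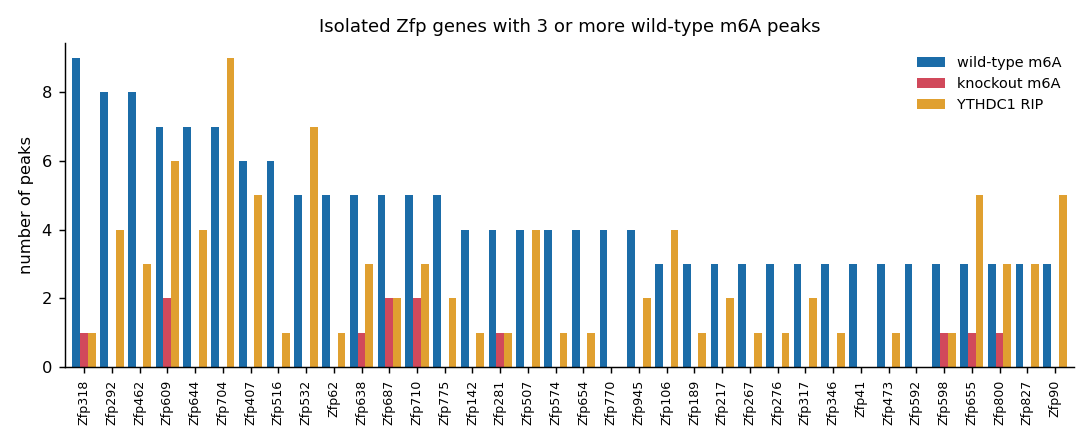
Number of peaks (vertical axis) of each list in the 36 members with 3 or more wild-type m6A peaks (horizontal axis, ordered by that number). Zfp318 leads with 9 wild-type peaks, Zfp704 has the most RIP peaks (9), and no gene shown has more than 2 knockout peaks.

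Of the 36 members with 3 or more wild-type peaks, 9 (25%, 12.1 to 42.2%) had a knockout peak, beside 20% of all members and 50.2% of the 1317 protein-coding genes with 3 or more. Zfp407 and Zfp516 had 6 each and no knockout peak. Zfp532, Zfp62 and Zfp775 had 5 and no knockout peak, while Zfp638 had 5 with 1 knockout peak and Zfp687 and Zfp710 had 5 with 2. Zfp281 had 4 with 1, and Zfp142, Zfp507, Zfp574, Zfp654, Zfp770 and Zfp945 had 4 with 0. With 3 wild-type peaks, Zfp598, Zfp655 and Zfp800 had 1 knockout peak each, and Zfp41, Zfp90, Zfp106, Zfp189, Zfp217, Zfp267, Zfp276, Zfp317, Zfp346, Zfp473, Zfp592 and Zfp827 had none.

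Most wild-type peaks lay toward the 3′ end of these genes and most knockout peaks toward the 5′ end. Strand was taken from the RefSeq promoter table, which held 122 of the 155 members, and the position of a midpoint was expressed as a percentage of the span from the 5′ end. The 181 wild-type peaks in 80 such members had a median position of 79.7% (95% interval of the median 77 to 84.2%). The 41 knockout peaks in 28 members had a median position of 11.1% (3.38 to 24.8%), and in the members with 1 listed start alone it was 4.76%. The 154 RIP peaks in 77 members lay in between, at 55.8% (37.1 to 68.4%). Over all protein-coding genes with a strand the medians were 86%, 17.6% and 47.4%, so the order of the lists was that of genes at large.

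In detail, 148 of the 181 wild-type peaks (81.8%, 75.4 to 87.1%) lay beyond the middle of the span, beside 76.8% over all protein-coding genes. The final 10% of the span held 29.3% (22.8 to 36.5%) of them, beside 43.3%. The stretch from 70 to 80% held 21% of them, beside 8.76%, and that from 80 to 90% held 20.4%, beside 14.3%. Within 200 bp of the 3′ end there was no wild-type peak of a member (0 of 181, interval up to 2.02%), beside 1.38% over all protein-coding genes, which lies in that interval. Of the 80 members, 59 (73.8%, 62.7 to 83%) had every wild-type midpoint beyond the middle and 8 (10%, 4.42 to 18.8%) had none there. Over protein-coding genes with a strand and a wild-type peak the shares were 70.1% and 12.5%, inside both intervals. Of the knockout peaks, 19 of 41 (46.3%, 30.7 to 62.6%) lay in the first 10% of the span, beside 44.3% of those in all protein-coding genes, which is near the background.

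**Figure D4:**
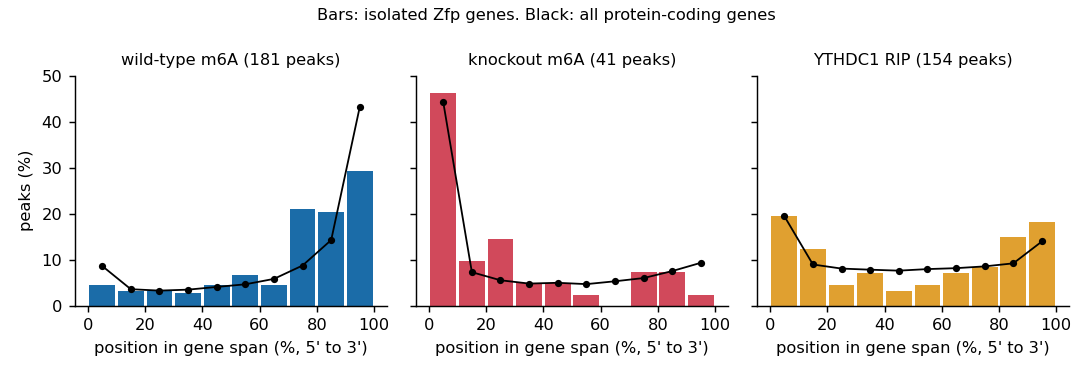
Percentage of peaks (vertical axis) in each 10% of the gene span from the 5′ to the 3′ end (horizontal axis), with 1 panel for each list; bars are peaks in isolated Zfp genes and the black line is all protein-coding genes with a known strand. Wild-type bars rise beyond 70% of the span, the knockout bars have their maximum of 46.3% at the 5′ end, and the RIP bars are high at both ends.

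Peaks of both m6A lists were found in 25 members with a known strand. The median knockout midpoint lay nearer the 5′ end than the median wild-type midpoint in 23 of the 25 (92%), and in 17 every knockout midpoint preceded every wild-type one. Over all protein-coding genes with both, 1696 of 2109 (80.4%) had that order of the medians. No interval was computed for the 25 members, so whether 92% differs from 80.4% is not settled. The stricter order, every knockout midpoint first, was not counted over all genes. Zfp57 is an example of it, with knockout peaks at 15.6% and 22.6% of the span and its wild-type peak of 1050 bp at 93.7%. Zfp451, which encodes a SUMO ligase, had knockout peaks at 2.18% and 3.38% and wild-type peaks at 70.1% and 71.5%.

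The 31 members with a knockout m6A peak held 45 such peaks, with a median width of 250 bp. Zfp42 and Zfp384 had 3 each. Zfp57, Zfp64, Zfp330, Zfp451, Zfp512, Zfp513, Zfp609, Zfp687, Zfp710 and Zfp830 had 2, and the other 19 had 1. Over all protein-coding genes with a knockout peak, 2375 of 3981 had 1. Of the 45 knockout peaks of the members, 13 overlapped a wild-type peak (28.9%, 16.4 to 44.3%), beside 21.3% over all protein-coding genes. A RIP peak was overlapped by 9 of them (20%, 9.58 to 34.6%), beside 21.6%. Both intervals contained the share of all genes. Seen from the other list, 12 of the 246 wild-type peaks (4.88%, 2.55 to 8.37%) overlapped a knockout peak, beside 11.7% (11.1 to 12.3%) over all protein-coding genes. These 12 lay in 10 members: Zfp281, Zfp296, Zfp318, Zfp326, Zfp330, Zfp598, Zfp609, Zfp687, Zfp710 and Zfp830. The knockout peaks of Zfp384 lay in the span of another gene as well, as did those of Zfp91, Zfp593, Zfp653 and Zfp706, so that they cannot be assigned to the member alone. Whether knockout peaks mark m6A was not tested.

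In 8 members a knockout peak had its midpoint within 200 bp of the 5′ end, which is 8 of 41 peaks (19.5%, 8.82 to 34.9%), beside 28.8% over all protein-coding genes. Within 200 bp of the 3′ end there were 0 (interval up to 8.6%), beside 0.533%. The promoter windows of these 8 genes are shown because they hold the stretch where a knockout peak meets the start of the gene. Each window runs from 250 bases before to 50 bases after the listed start, 5′ to 3′ on the strand of the gene (RefSeq, GRCm38.p6), and capitals mark the bases inside the knockout peak.
Zfp42 (chr8:43306960-43307259, minus strand): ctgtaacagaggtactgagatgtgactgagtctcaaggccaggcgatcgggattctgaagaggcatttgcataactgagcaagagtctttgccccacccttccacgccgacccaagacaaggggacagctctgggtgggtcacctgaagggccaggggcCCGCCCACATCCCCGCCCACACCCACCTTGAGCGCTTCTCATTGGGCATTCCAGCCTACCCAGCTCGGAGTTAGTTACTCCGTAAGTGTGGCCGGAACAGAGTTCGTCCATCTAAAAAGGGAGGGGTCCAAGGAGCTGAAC
Zfp207 (chr11:80383029-80383328, plus strand): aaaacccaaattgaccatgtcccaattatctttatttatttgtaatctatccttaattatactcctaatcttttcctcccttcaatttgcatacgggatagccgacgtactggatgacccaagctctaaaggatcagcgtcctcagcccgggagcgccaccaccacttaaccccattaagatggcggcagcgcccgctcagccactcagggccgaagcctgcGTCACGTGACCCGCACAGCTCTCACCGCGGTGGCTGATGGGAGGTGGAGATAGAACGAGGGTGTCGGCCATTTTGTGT
Zfp296 (chr7:19577037-19577336, plus strand): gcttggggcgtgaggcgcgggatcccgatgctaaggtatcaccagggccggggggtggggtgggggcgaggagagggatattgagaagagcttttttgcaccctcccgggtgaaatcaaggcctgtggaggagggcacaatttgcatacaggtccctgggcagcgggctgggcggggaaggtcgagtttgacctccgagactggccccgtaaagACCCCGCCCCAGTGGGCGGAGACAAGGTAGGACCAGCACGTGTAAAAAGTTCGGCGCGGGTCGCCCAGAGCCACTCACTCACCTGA
Zfp830 (chr11:82764095-82764394, plus strand): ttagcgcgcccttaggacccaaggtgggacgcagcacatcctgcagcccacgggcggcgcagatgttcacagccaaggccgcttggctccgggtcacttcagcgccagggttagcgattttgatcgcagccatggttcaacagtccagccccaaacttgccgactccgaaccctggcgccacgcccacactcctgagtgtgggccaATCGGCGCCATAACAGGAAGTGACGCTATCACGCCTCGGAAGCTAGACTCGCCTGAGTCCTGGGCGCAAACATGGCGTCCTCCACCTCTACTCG
Zfp330 (chr8:82774096-82774395, minus strand): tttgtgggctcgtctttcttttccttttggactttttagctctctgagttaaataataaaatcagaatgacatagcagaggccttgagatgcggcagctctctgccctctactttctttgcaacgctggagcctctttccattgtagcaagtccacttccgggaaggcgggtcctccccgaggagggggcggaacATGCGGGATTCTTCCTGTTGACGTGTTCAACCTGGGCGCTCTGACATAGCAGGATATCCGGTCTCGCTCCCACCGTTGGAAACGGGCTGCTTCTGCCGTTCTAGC
Zfp710 (chr7:80024564-80024863, plus strand): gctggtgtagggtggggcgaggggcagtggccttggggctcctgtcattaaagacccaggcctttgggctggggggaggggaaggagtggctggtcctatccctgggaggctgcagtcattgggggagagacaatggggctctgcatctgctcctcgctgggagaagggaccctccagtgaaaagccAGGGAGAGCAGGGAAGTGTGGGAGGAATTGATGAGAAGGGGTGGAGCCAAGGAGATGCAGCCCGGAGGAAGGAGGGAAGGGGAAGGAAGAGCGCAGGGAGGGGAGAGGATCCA
Zfp185 (chrX:72987089-72987388, plus strand): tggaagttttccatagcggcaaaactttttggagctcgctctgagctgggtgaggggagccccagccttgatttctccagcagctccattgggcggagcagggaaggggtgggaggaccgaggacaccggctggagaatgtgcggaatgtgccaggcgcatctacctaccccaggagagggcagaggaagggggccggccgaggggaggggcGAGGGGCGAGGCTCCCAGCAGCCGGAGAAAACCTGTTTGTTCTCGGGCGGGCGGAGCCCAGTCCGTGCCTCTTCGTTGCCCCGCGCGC
Zfp653 (chr9:22071327-22071626, minus strand): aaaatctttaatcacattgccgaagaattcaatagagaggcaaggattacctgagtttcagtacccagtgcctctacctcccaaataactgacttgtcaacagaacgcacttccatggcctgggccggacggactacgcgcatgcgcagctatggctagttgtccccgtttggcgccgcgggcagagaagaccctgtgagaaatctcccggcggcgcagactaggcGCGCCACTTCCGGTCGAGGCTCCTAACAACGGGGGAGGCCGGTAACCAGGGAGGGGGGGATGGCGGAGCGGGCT

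All 8 peaks covered the 50 transcribed bases of the window and reached upstream of the listed start. Zfp42, also called Rex1 and a classic marker of naive pluripotent cells, had 141 of the 300 bases inside its peak (chr8:43306751-43307100), with 7 CG dinucleotides among them. The same peak overlapped a RIP peak (chr8:43306637-43306836) and no wild-type peak. In Zfp207, the spindle and splicing protein BuGZ, 78 window bases lay in a peak that also overlapped a RIP peak (chr11:80383251-80383550). In Zfp296, a zinc finger protein that aids reprogramming, and in Zfp710 a wild-type peak stood at the same place, and in Zfp710 the wild-type and knockout peaks had the same edges (chr7:80024751-80025050). Zfp330 also had a wild-type peak there. In Zfp830, a nuclear protein linked to splicing, the knockout peak overlapped both a wild-type and a RIP peak, of which the RIP peak began downstream of the window. The knockout peaks of Zfp185 and Zfp653 overlapped no peak of the other lists.

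The letters GGAC, the core of the m6A consensus, were looked for on the sense strand only. Within the capitals they occurred 1 time in Zfp296, upstream of the listed start, and in none of the other 7. Of the 8 members not shown whose window met a knockout peak, 4 held them in the peak part: Zfp57, Zfp513, Zfp655 and Zfp687. Among the 50 transcribed bases of all windows of protein-coding genes, 20% held GGAC, beside 20.1% of the windows of the members and 23.7% of those of the members with a knockout peak. The absence of these letters says nothing about the bases outside the window, which hold most of each peak.

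By gene, 16 of the 122 members with a promoter window (13.1%, 7.69 to 20.4%) had a knockout peak overlapping at least 1 window, beside 13% of all protein-coding genes with a window. For wild-type peaks this was 7 members (5.74%, 2.34 to 11.5%), beside 3.8%, and for RIP peaks 14 (11.5%, 6.42 to 18.5%), beside 8.1%. Each of these intervals contained the share of all genes. Of the 41 knockout peaks, 17 (41.5%, 26.3 to 57.9%) had a midpoint within 500 bp of a listed start, beside 44.7% over all protein-coding genes. For wild-type peaks this was 7 of 181 (3.87%, 1.57 to 7.81%), beside 7.03%, and for RIP peaks 25 of 154 (16.2%, 10.8 to 23%), beside 13.3%. Each interval contained the share of all genes.

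The windows of the members had a median of 17 CG dinucleotides, beside 13 over all protein-coding genes. The median was 18 in members with wild-type m6A, 19.5 in those with knockout m6A, 13 in those with RIP and no m6A and 16 in those with no peak. On either strand the GC box GGGCGG was present in 53% of the 164 windows of the members, beside 46.2% of all windows. It was in 60.2% of the 113 windows of members with wild-type m6A and in 39.1% of the 23 of members with no peak. The ETS core CCGGAA was present in 36% of the windows of the members, beside 18.7% of all windows. It was in 34.5% of the windows of members with wild-type m6A and in 39.1% of those of members with no peak, the opposite order. TGACGTCA, the cyclic AMP response element, was in 3.66% of the windows of the members, beside 2.23% of all windows. Each motif was counted on its own, so matches of different motifs may share bases. These are matches of letters and not tests of binding.

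The 206 RIP peaks in 97 members had a median width of 200 bp, the same as over all protein-coding genes, and 78 of them (37.9%) were exactly 200 bp wide, beside 24.6% of the whole RIP list. Of the 206, 4 were wider than 500 bp. At 1 kb or wider there were 3 (1.46%, 0.301 to 4.2%), beside 5.29% of those in all protein-coding genes. The widest spanned 6215 bp in Zfp317 (chr9:19633134-19639348), and the next were 1097 bp in Zfp469, 1095 bp in Zfp618 and 566 bp in Zfp330. A single RIP peak was found in 56 of the 97 members, beside 3872 of the 9243 protein-coding genes with a RIP peak.

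The member with the most RIP peaks was Zfp704, with 9 over its 183 kb span, followed by Zfp532 with 7. Zfp207, Zfp451 and Zfp609 had 6, and Zfp57, Zfp90, Zfp148, Zfp407 and Zfp655 had 5. All 10 also had wild-type m6A, as did 74 of the 97 members with any RIP peak and 4941 of 9243 such protein-coding genes. The share among protein-coding genes with as many RIP peaks as these 10 was not counted. The RIP peak numbers of the members had a rank correlation with their wild-type m6A peak numbers of 0.509 (155 members), a description over genes that share the lists and their thresholds. Among members with wild-type m6A 74% (64.3 to 82.3%) had a RIP peak, beside 74.5% of all protein-coding genes with wild-type m6A, which is near the background. Among those without it the share was 41.8% (28.7 to 55.9%), beside 28.2%. Zfp966 and Zfp967 had the same span length (12818 bp) and a RIP peak of the same width (387 bp) at the same distance from the 5′ end (325 bp). Whether reads were shared between these copies was not tested.

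Of the 246 wild-type peaks, 26 (10.6%, 7.02 to 15.1%) overlapped a RIP peak by at least 1 bp, beside 13.1% over all protein-coding genes and 14.7% (10.9 to 19.3%) over clustered Zfp genes, so the interval contained the first share. In 52 of the 74 members with both kinds of peak no wild-type peak overlapped a RIP peak (70.3%, 58.5 to 80.3%), near the 71.3% of the 4941 protein-coding genes with both. The 22 with an overlap were Zfp1, Zfp42, Zfp69, Zfp90, Zfp131, Zfp267, Zfp281, Zfp292, Zfp296, Zfp319, Zfp407, Zfp507, Zfp609, Zfp622, Zfp644, Zfp655, Zfp687, Zfp704, Zfp710, Zfp775, Zfp830 and Zfp990, of which Zfp1, Zfp407, Zfp655 and Zfp775 had 2 such peaks and the rest 1. The 20 of these peaks with a known strand had a median position of 83.8%. Some lay toward the other end, such as those of Zfp622 at 5.03% of the span, Zfp830 at 14.7% and Zfp281 at 28.2%. In Zfp42, too, the overlap was near the 5′ end. It was between a 300 bp wild-type peak (chr8:43305851-43306150) and a 252 bp RIP peak (chr8:43305615-43305866), at 8.45% and 10.6% of the span. Only the edges of these 2 peaks overlapped. With an overlap of at least 50% of the shorter peak required, 24 of the 26 wild-type peaks remained. Of all 26, 25 overlapped no knockout peak, and the exception was the 1050 bp peak of Zfp830 (chr11:82764301-82765350). Among all 246 wild-type peaks of the members, 234 overlapped no knockout peak. Over all protein-coding genes, 1244 of the 1514 wild-type peaks on a RIP peak overlapped none.

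Role groups, lists that are not complete and were drawn up with earlier results of these data known, differed in how many members had peaks. They are described by counts, beside 100, 31 and 97 of the 155 members with wild-type, knockout and RIP peaks and medians of 1 wild-type and 1 RIP peak over all members. Of the 10 members listed for work in pluripotent cells or the early embryo, 9 had wild-type, 6 knockout and 10 RIP peaks. Their medians were 2 wild-type and 2.5 RIP peaks. These counts depend on who was listed: Zfp352, which is not on the list, had no peak in any of the 3 peak lists. Zfp281, which restrains Nanog, had 4 wild-type peaks that followed each other from 12.3% to 50.1% of its 5491 bp span, 1 knockout peak inside the first of them (chr1:136625251-136625750) and 1 RIP peak on the second. Zfp42 had 2 wild-type, 3 knockout and 4 RIP peaks, and none of its knockout peaks overlapped a wild-type one. Zfp296 had a 950 bp wild-type peak at 84.2% of its span with a RIP peak in it and no knockout peak there.

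Zfp57, the KRAB protein that keeps methylation at imprinted loci, had 1 wild-type, 2 knockout and 5 RIP peaks, and a 500 bp knockout peak near its 5′ end (chr17:37002401-37002900) overlapped 2 of the RIP peaks. Zfp217, which has been described as a partner that holds METTL3 back from pluripotency transcripts, had 3 wild-type peaks of 1550, 1150 and 400 bp between 72.2% and 85.6% of its span, 2 RIP peaks and no knockout peak. Zfp143 had a single 600 bp wild-type peak at 97.8% and 2 RIP peaks. Zfp706, a small protein reported to oppose self-renewal, was the only 1 of the 10 without wild-type m6A, with a 100 bp knockout peak and 1 RIP peak.

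**Figure D5:**
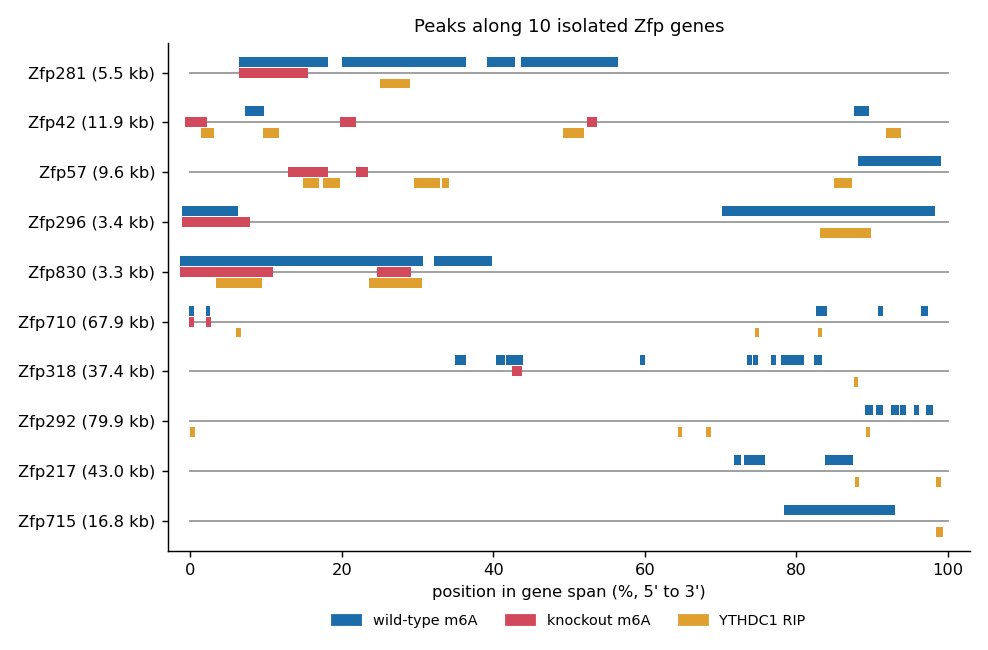
Peaks of the 3 lists along 10 isolated Zfp genes, picked after their values were seen, each drawn from the 5′ (left) to the 3′ end of its span (horizontal axis, % of the span, with the span length in kb beside the name); blocks are peaks, drawn no narrower than 0.6% of the span. Knockout blocks begin within the first 20% of the span in Zfp281, Zfp42, Zfp57, Zfp296, Zfp830 and Zfp710, with the last of Zfp42 at 53%. The knockout block of Zfp318 is at 43.1%. The wild-type blocks of Zfp292, Zfp217 and Zfp715 stand beyond 70%.

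Of 11 members that act in chromatin complexes, all 11 had wild-type, 6 knockout and 10 RIP peaks. Zfp592, Zfp687 and, from the list above, Zfp532 encode relatives that work with the chromatin reader ZMYND8. They had 3, 5 and 5 wild-type and 0, 2 and 0 knockout peaks. Zfp592 had no RIP peak and Zfp532 had 7. Zfp644, a partner of the H3K9 methyltransferases G9a and GLP, had 7 wild-type peaks, none wider than 450 bp, and no knockout peak. Zfp638, which helps silence unintegrated retroviral DNA through the HUSH complex, had 5 wild-type peaks, 1 knockout peak at 6% of its span and 3 RIP peaks. That knockout peak lay far upstream of the nearest listed start (-40103 bp). Zfp91, Zfp131, Zfp148, Zfp217, Zfp219, Zfp512 and Zfp830 complete the list.

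Of 9 members with a known tie to RNA, 7 had wild-type, 5 knockout and 7 RIP peaks. Zfp326, a subunit of a complex that links elongation to splicing, had 1 wild-type peak of 200 bp overlapping 1 knockout peak of 450 bp (chr5:105914601-105915050) at 97.5% of its span, the only knockout peak in the final 10% of the span among members with a known strand. Zfp106 had 3 wild-type and 4 RIP peaks, and Zfp346, which binds double-stranded RNA, had 3 and 1. Zfp697 had 1 RIP peak and no m6A. Zfp36, which encodes the AU-rich element binding protein tristetraprolin, had no peak. Zfp207, Zfp318, Zfp638 and Zfp830, given above, complete the list.

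Of 15 members known for roles in neural or other development, 7 had wild-type, 2 knockout and 10 RIP peaks, and the median number of wild-type peaks was 0. The 7 were rich in peaks, with 42 wild-type peaks in all: 8 in Zfp292, 7 each in Zfp609 and Zfp704, 6 each in Zfp407 and Zfp516, 5 in Zfp710 and 3 in Zfp827. The 5 with no peak in any list were Zfp503, which acts in limb and striatum, Zfp521 and Zfp536, regulators of neural differentiation, Zfp608 and Zfp703. Zfp423, a factor of cerebellum and fat cells, had 4 RIP peaks and no m6A peak, and Zfp335 and Zfp618 had 1 RIP peak each. Of the 3 members on the list of silencing of retroviruses and imprints, all had wild-type and RIP peaks: Zfp57 (1 and 5), Zfp69 (1 and 1) and Zfp90 (3 and 5).

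Some members outside the role lists also had knockout peaks. Zfp598, the ubiquitin ligase that senses collided ribosomes, had 3 wild-type peaks and 1 knockout peak of 350 bp (chr17:24680551-24680900) at 89.5% of its span, overlapping 1 of the wild-type peaks. Zfp593, a factor of ribosome assembly, had 1 peak in each list. Zfp622, another factor of large-subunit assembly, had 2 wild-type and 4 RIP peaks and no knockout peak. Zfp384 had 3 knockout peaks between 75.8% and 84% of its span and 2 wild-type peaks that overlapped none of them. Zfp185, an actin-binding LIM domain protein, had its knockout peak at 0.393% of the span, and Zfp414 at 80.3%.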

How the data were processed

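The 3 files hold the start and end of each peak in bp as the authors deposited them, with no score. Trim Galore 0.6.4 and STAR 2.7 are named among the tools, per the submitters' processing notes, which also list MACS2 2.1.2, HISAT2 2.2.0 and SAMtools 1.9, and mm10 as the build. What each tool did, the peak threshold and any pooling of replicates were not stated in what was used here. RIP libraries were made from total RNA and m6A libraries from polyA RNA, per the labels. The part of that difference in comparisons between the lists was not tested.

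Gene spans and promoter windows came from RefSeq (GRCm38.p6), with strand for 122 of 155 members. Peaks were counted by midpoint and overlapped from 1 bp, with Python 3.11.15, pandas 2.3.3 and SciPy 1.17.1, and the interval code was tested on simulated data. The choice of members, lists and the rule for named genes was made with earlier results of these data known. Named in detail were members with a knockout peak, with 3 or more wild-type peaks or a wild-type peak on a RIP peak, the 12 with the widest wild-type peak, the 10 with most RIP peaks and those in the role lists. No test was run, because no list has a value per sample. Alternatives were another counting rule, isolation by 50 or 200 kb, peaks above the median width, peaks in no other span and a stricter overlap. Peaks under read coverage, exons and sequence within peaks outside promoter windows were not analysed here.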

Additional observations from a re-analysis of the deposited data

How the results depend on the processing

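Of 49 alternative values, 43 stayed close to the main one (counts within 1.5 times, median positions within the interval of the main median), and the 6 that did not all came from keeping only peaks wider than the median of their list, which leaves fewer peaks by construction. Members with a wild-type m6A peak then numbered 65, with a knockout peak 20, with a RIP peak 52 and with knockout m6A alone 7. Of the wild-type peaks left, 7 overlapped a RIP peak and 4 a knockout peak. The median position of wild-type peaks ranged from 78.1 to 80.9% over the alternatives and that of knockout peaks from 4.76 to 11.8%. With wider peaks only, the knockout median of 10.9% rested on 19 peaks and its interval ran from 2.18 to 75.8%, so its place was hardly fixed. The alternatives for the knockout median, and the restriction to members with 1 listed start, were chosen after seeing the data. No paired analysis was possible because each genotype has 1 peak list with no value per replicate, and for the same reason no sample could be left out. Depth, and with it the reach of the peak caller in each list, is unknown, so a missing peak does not show a missing mark. Zinc finger motif counts in the proteins were planned and not run, as no protein table was used here.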
